A study of Mus musculus with 14 samples.

Results

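The genes that make or load lipoproteins, 9 in all, were followed across all libraries of a mouse embryonic stem cell (ESC) series on the pioneer transcription factor Foxa2. They are 8 apolipoprotein genes, Apoa1, Apoa2, Apoa4, Apob, Apoc1, Apoc2, Apoe and Apom, and Mttp, which encodes the microsomal triglyceride transfer protein. They were picked by name, and all 9 of 9 were found among the 24054 genes of each table. RNA was measured by low-input sequencing in 14 libraries in 6 groups. In d0con and d0ko (2 libraries each) ESCs were taken at day 0, after a day on feeder fibroblasts in medium without LIF, and sorted away from the red-fluorescent feeders. In d3con and d3ko (3 libraries each) the cells had spent 3 days on Wnt3a-secreting feeder cells with 12 ng/ml Activin A, and Venus-positive cells were sorted. The con cells carried 1 Foxa2 allele replaced by the nuclear reporter H2B-Venus, so they had 1 working allele, and the ko cells carried 2 replaced alleles. Every con and ko library therefore lacks at least 1 copy of Foxa2. Each genotype came from 2 ESC clones, and replicates 1 and 3 of both day 3 groups came from the same clone, so the 3 libraries of a group stand for 2 clones. In d2-FVFn and d2-FVFp (2 libraries each) a single line grown in LIF and serum without feeders, homozygous for a Sox17-Cherry fusion, carried a Foxa2-Venus fusion under a doxycycline-inducible promoter. After 48 hours in 40 ng/ml doxycycline they were sorted as Venus-negative (d2-FVFn) or Venus-positive (d2-FVFp). Both groups had therefore seen the drug, and no library without it was in the comparison. The unit of the dose is that of the labels, while the study's supplement prints 40 ng/ul.

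Apolipoproteins are the protein parts of lipoproteins, the particles that carry fat and cholesterol in blood. ApoB is the scaffold of very-low-density particles and chylomicrons, and Mttp loads lipid onto it in the endoplasmic reticulum, while apoA-I and apoA-II form high-density particles. In the embryo these genes are best known from the visceral endoderm and yolk sac and later from the liver and gut, all of which use Foxa, Hnf and Gata transcription factors, whereas Apoe is also made by many other cells, fibroblasts and macrophages among them.

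Library totals ran from 14142788 to 27278237 expected counts, so depth differed less than 2-fold. The targeted gene followed its labels. Foxa2 had 58.6, 34.8 and 54.5 TPM (a transcript level scaled for gene length and library total) in the 3 d3con libraries and 0.11, 0.15 and 0.19 TPM in d3ko. It had 2.99 and 2.01 TPM in d2-FVFn and 168.6 and 159.8 TPM in d2-FVFp. The endoderm genes Sox17 (62.4 to 130.5 TPM) and Cer1 (544.2 to 548.2 TPM) were present in all d3con libraries. In d3ko Sox17 had 0.76 to 2.1 TPM, so these cells are Venus-positive by the sort but carry little Sox17. Cer1 had 1.22, 56.4 and 1.87 TPM there. Other genes of the endoderm list varied in d3ko. Gsc had 9.09 to 52.7 TPM and Eomes 12.1 to 63.2 TPM, against 119.8 to 165.9 and 67.3 to 78.3 TPM in d3con. Pyy had 0 to 2.7 TPM, against 4.76 to 13.8 TPM in d3con. Pluripotency genes such as Dppa5a, Sox2, Klf4 and Zfp42 were retained unevenly in d3ko. The summed level of 6 of them (Pou5f1, Nanog, Sox2, Klf4, Zfp42 and Dppa5a) was 15431 TPM, 2668 TPM and 17364 TPM in d3ko replicates 1, 2 and 3, against 561.5 to 984.8 TPM in d3con and 13787 to 15663 TPM at day 0. Most of this sum was Dppa5a, at 14200, 1866.5 and 15543 TPM in the 3 d3ko libraries. Sox2 (89.3, 14.7 and 86.1 TPM), Klf4 (55.2, 5.74 and 46.2 TPM) and Zfp42 (309.0, 40.1 and 400.1 TPM) were also lowest in replicate 2. Pou5f1 (522.5, 500.9 and 943.7 TPM) and Nanog (254.5, 240.1 and 345.1 TPM) did not set replicate 2 apart from replicate 1. In d3con these 2 genes were highest in replicate 2, with Pou5f1 at 63.5, 319.0 and 59.7 TPM and Nanog at 40.2, 246.1 and 42.5 TPM. The library d3ko replicate 2, the only one of its clone, stands apart in the sum, and a member's value in d3ko that is called or loses its call without it, or moves by over 1.5 times, is given with and without it.

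Apoe carried most of the RNA of the set in every library. It made up 86.5% to 95.7% of the summed TPM of the 9 genes, and Apoe, Apoc1 and Apoa2 together made up 97.9% to 99.9%. The other 6 genes sat in single digits or lower. The plot of TPM by library gives every value.

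**Figure D1:**
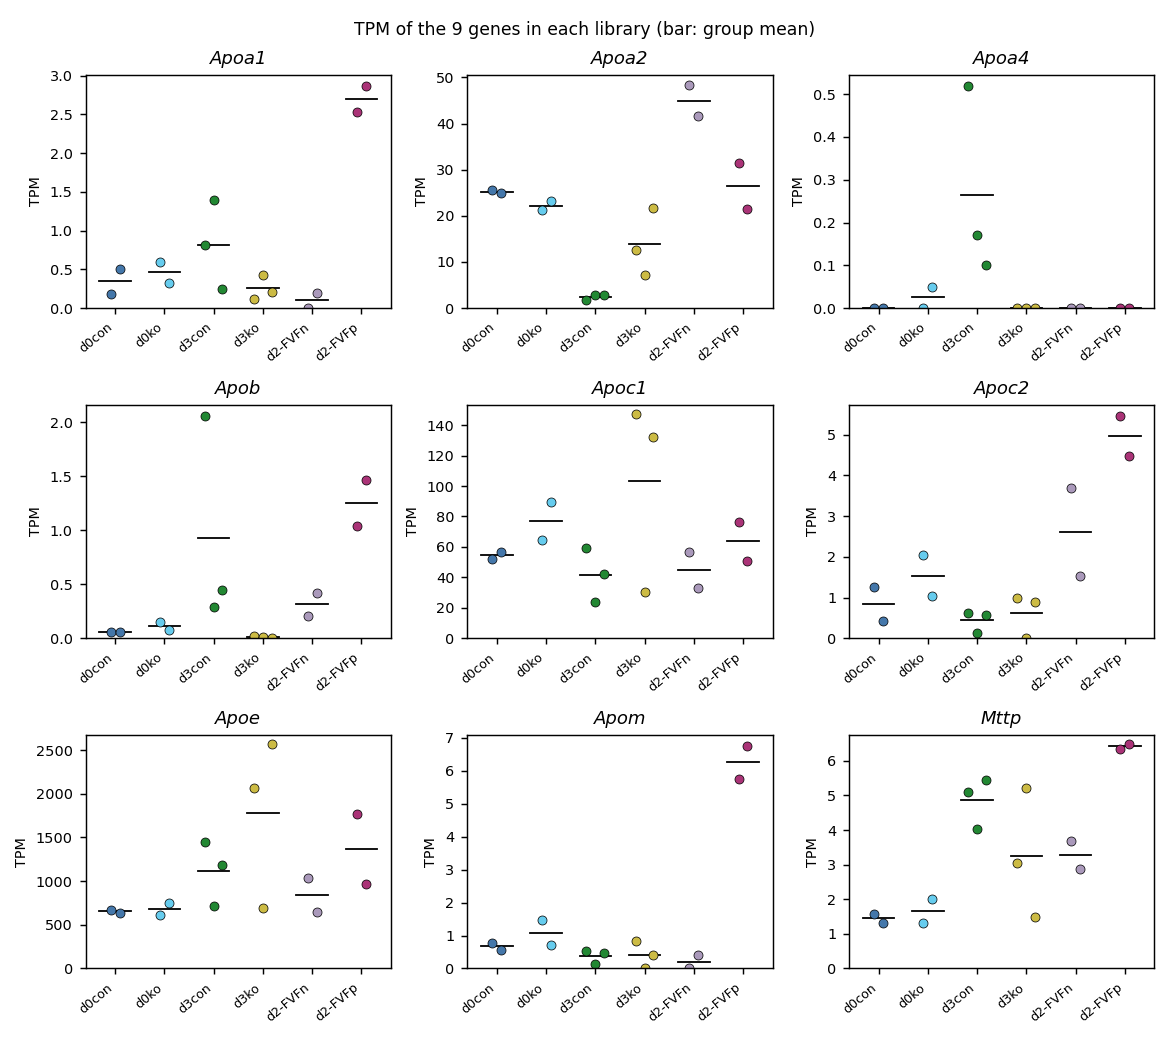
TPM (y axis, linear from 0) of each of the 9 genes in the 14 libraries, 1 panel per gene, with groups on the x axis, 1 point per library and a bar at the group mean. Apoe reaches 2575.9 TPM, while Apob peaks in d3con (2.06 TPM) and d2-FVFp (1.47 TPM) and is at 0.02 TPM or less in d3ko, and Apom and Apoa1 are highest in the 2 d2-FVFp libraries.

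To ask whether a gene differed between 2 groups, expected counts were fitted with edgeR's quasi-likelihood test over all genes that reached 1 CPM (counts scaled to the library total) in 2 libraries. A gene was called when its Benjamini-Hochberg adjusted p was under 0.05 and its fold change over 2 (1 on the log2 scale). Of the 9 genes, 5 passed the filter in the 10 libraries of day 0 and day 3 (Apoa2, Apob, Apoc1, Apoe and Mttp) and 8 passed in the 4 doxycycline libraries (all but Apoa4). Levels in TPM below are per library in replicate order. In bulk RNA, fewer cells that make a transcript and less transcript per cell cannot be told apart.

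Apob, the lipoprotein scaffold, had the widest difference between the genotypes at day 3 of the 5 members tested. It was barely detected in ESCs, with 0.06 and 0.06 TPM in d0con and 0.15 and 0.08 TPM in d0ko. After 3 days it had 2.06, 0.29 and 0.45 TPM in d3con and 0.02, 0.01 and 0 TPM in d3ko. All 3 d3con libraries lay above every day 0 library, and all 3 d3ko libraries lay below every day 0 library. In counts this rests on 345, 43 and 79 reads in d3con against 3, 2 and 0 reads in d3ko, at totals of 15882612 to 27278237. In d3ko, 5 reads in all against 467 in d3con is a ratio of 0.0112 (exact 95% interval 0.00361 to 0.0262), and such intervals cover counting error only.

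Apob reached 1 CPM in the 3 d3con libraries and in d0ko replicate 1, so it entered the test through the group where it is high. Between d3con and d0con Apob rose by a log2 change of 3.84 (SE 1.12, adjusted p = 0.0182 by edgeR). In d3ko it was lower than in d3con, with a log2 change of -6.34 (SE 1.14, adjusted p = 0.0140 by edgeR). Within the ko cells the log2 fold change from day 0 was -3.46 (SE 1.17) and missed the threshold with an edgeR adjusted p of 0.0517. Blocking on the replicate number, where replicate 3 of day 3 forms its own level, gave -3.09 with an edgeR adjusted p of 0.0428, which is a call. With the clone itself as the block it was -3.51 with an edgeR adjusted p of 0.0574, which is not. The opposite movement in the 2 genotypes was tested as an interaction. Its log2 value of -7.30 (SE 1.62) had an edgeR adjusted p of 0.153, against 0.000374 by DESeq2, and 0.0386 by edgeR without d3ko replicate 2. The rise in d3con depended on single libraries. The log2 value without d3con replicate 1, the library with the highest level, was 2.43 (adjusted p = 0.0510 by edgeR), and without d0con replicate 1 or 2 it was 3.92 and 3.76 (edgeR adjusted p = 0.101 and 0.106). The difference between the genotypes at day 3 was smaller but still called without d3con replicate 1, which holds most of the d3con reads (-4.91, adjusted p = 0.0464 by edgeR). It was not called without d3con replicate 3 (-6.70, adjusted p = 0.0566 by edgeR), without both 75-base libraries of day 3, which are the first replicates (-5.74, adjusted p = 0.126 by edgeR), in a fit of only the 2 groups (-6.34, adjusted p = 0.0585 by edgeR), or with the libraries of 1 clone summed (-6.09, adjusted p = 0.0887 by edgeR).

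The doxycycline line gave Apob a second, independent comparison. Apob had 0.21 and 0.42 TPM in d2-FVFn and 1.04 and 1.47 TPM in d2-FVFp, from 25 and 62 reads against 109.4 and 181 expected reads. Both Venus-positive libraries lay above both Venus-negative ones, and the log2 fold change was 1.94 (SE 0.40, adjusted p = 0.0188 by edgeR). Without d2-FVFn replicate 1 it was 1.54 with an edgeR adjusted p of 0.0850. In this and any other setting that leaves 1 library in a group, the lone library is assumed to vary like the others.

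Apob lies on chromosome 12 at 7977629 to 8016839 of GRCm38.p6 (plus strand). Its nearest protein-coding neighbours in RefSeq are Klhl29 and Atad2b on one side and Ldah and Gdf7 on the other. Klhl29 averaged 0.045 to 0.273 TPM and Gdf7 0 to 0.215 TPM per group, and Atad2b, an expressed gene, 4.02 to 6.87 TPM. Ldah was not analysed here. The sequence before the RefSeq start at 7977677 is shown because Apob is the one member called in both systems. That start lies inside the gene range above, so the printed bases run past 7977629. Capitals mark the TATA box TATAAA and GCAAACA, the reverse complement of TGTTTGC.

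Apob, chr12:7977427-7977647, plus strand, GRCm38.p6: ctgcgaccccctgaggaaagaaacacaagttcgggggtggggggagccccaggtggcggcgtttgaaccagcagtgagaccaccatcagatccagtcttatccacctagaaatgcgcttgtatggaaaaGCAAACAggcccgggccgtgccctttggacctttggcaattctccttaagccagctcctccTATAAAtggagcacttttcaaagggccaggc

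These 221 bases end where the first exon in the GENCODE annotation begins. Windows of 250 bases before the starts were searched on both strands for the Foxa motif TGTTTAC and its variant TATTTAC. The other motifs reported here were CAAAGTCCA for Hnf4, the letters AGATAA for Gata factors and TATAAA for the TATA box. The Foxa-like TGTTTGC was added after the windows had been seen. In the Apob window, TATAAA lies 60 to 55 bases before the start at 7977677 and GCAAACA 121 to 115 bases before it. Neither Foxa motif was found there. Over all 32851 RefSeq windows of this length, 12.4% held TATAAA, 4.30% TGTTTGC, 3.17% TGTTTAC, 2.73% TATTTAC, 0.384% CAAAGTCCA and 9.99% AGATAA. A match describes letters and does not show a bound site. Promoter windows were given for 8 of the 9 genes, not for Apoc1.

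Mttp, the partner that lipidates apoB, followed Apob only in part. It had 1.58 and 1.31 TPM in d0con and 1.30 and 2.0 TPM in d0ko, and 5.11, 4.02 and 5.46 TPM in d3con. All d3con libraries lay above all day 0 libraries, and Mttp rose by a log2 change of 1.53 (SE 0.49, adjusted p = 0.0268 by edgeR). In d3ko it had 3.04, 5.23 and 1.48 TPM, which spans the range from d0ko to d3con, and neither d3ko against d0ko (log2 0.80, SE 0.48, adjusted p = 0.225 by edgeR) nor d3ko against d3con (log2 -0.59, SE 0.41, adjusted p = 0.395 by edgeR) was called. Replicate 2, which had the lowest pluripotency sum of the d3ko libraries, had the most Mttp. Without it the log2 value was 0.31 against d0ko (adjusted p = 0.586 by edgeR) and -1.08 against d3con (adjusted p = 0.0633 by edgeR). Without d3ko replicate 3 the rise in ko cells was 1.15 on the log2 scale (adjusted p = 0.0378 by edgeR).

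With doxycycline, Mttp had 3.67 and 2.87 TPM in d2-FVFn and 6.35 and 6.49 TPM in d2-FVFp. The groups did not overlap, and the log2 fold change of 0.88 (SE 0.23) had an edgeR adjusted p of 0.0419 but stayed under the fold limit. The rise of Mttp in d3con was no longer called without d0con replicate 1 or 2 or without d3con replicate 1 or 3, with log2 values of 1.41 to 1.67 and edgeR adjusted p of 0.0566 to 0.143. Mttp lies on chromosome 3 at 138089855 to 138143418 (minus strand). Its exons overlap Trmt10a, which runs the other way, so without strand reads at the shared ends cannot be told apart. Trmt10a itself fell between d0con and d3con by 1.14 on the log2 scale (SE 0.16, adjusted p = 0.000641 by edgeR), the direction opposite to Mttp. On the other side Dapp1, which encodes an adaptor protein of phosphoinositide signalling, also fell (log2 -3.98, SE 0.54, adjusted p = 0.000598 by edgeR). The window before the Mttp start lies in annotated exons and is not printed, and it holds TATTTAC 185 to 179 bases before the start.

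Among the proteins of high-density particles, Apoa2 was the member that fell with differentiation. It had 25.6 and 24.9 TPM in d0con, 21.3 and 23.1 TPM in d0ko, and 1.66, 2.76 and 2.83 TPM in d3con. The d3con libraries lay far below all others, and Apoa2 fell by 3.60 on the log2 scale (SE 0.49, adjusted p = 0.000593 by edgeR), a 12.1-fold difference. In d3ko it had 12.7, 7.07 and 21.8 TPM, above every d3con library. The log2 difference between d3ko and d3con was 2.52 (SE 0.45, adjusted p = 0.0141 by edgeR), and that between d3ko and d0ko was -0.86 (SE 0.45, adjusted p = 0.176 by edgeR). The difference between d3ko and d3con was 2.31 without d3con replicate 1 (adjusted p = 0.0640 by edgeR) and 2.63 without d3con replicate 3 (adjusted p = 0.0671 by edgeR). With the libraries of 1 clone summed it was 2.34 (adjusted p = 0.110 by edgeR). Without d3ko replicate 3 the fall in ko cells was -1.37 on the log2 scale (adjusted p = 0.0318 by edgeR), which is a call. The interaction of genotype and day had a log2 value of 2.75 for Apoa2 (SE 0.67, adjusted p = 0.163 by edgeR). It was called without d3ko replicate 2 (3.06, adjusted p = 0.0112 by edgeR) and by DESeq2 with all libraries (2.77, adjusted p = 0.00751).

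Within d3ko the order of the libraries was the same for Apoa2 and for the pluripotency sum, which is mostly Dppa5a, from replicate 2 (7.07 TPM of Apoa2, 2668 TPM of the 6 genes) through replicate 1 (12.7 and 15431 TPM) to replicate 3 (21.8 and 17364 TPM). Within d3con the order was not the same, with 1.66, 2.76 and 2.83 TPM of Apoa2 at sums of 659, 984.8 and 561.5 TPM. Within d0ko it was reversed, with 21.3 and 23.1 TPM at sums of 15663 and 15263 TPM. The part of the retained pluripotency transcripts in the Apoa2 difference was not tested. Across systems the relation was not proportional, since d2-FVFn had the most Apoa2 (48.3 and 41.6 TPM) with pluripotency sums of 7908 and 6385 TPM. In d2-FVFp Apoa2 had 31.4 and 21.4 TPM, below both d2-FVFn libraries, with a log2 value of -0.82 (SE 0.27, adjusted p = 0.0780 by edgeR). Without d2-FVFp replicate 1 this was -1.10 (adjusted p = 0.0485 by edgeR).

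Apoa2 is on chromosome 1 at 171221564 to 171226379 (plus strand), between Tomm40l and Fcer1g, which encodes an immunoglobulin receptor subunit. RefSeq gives it 2 starts. The upstream one lies in an exon of Tomm40l, and the sequence before the other is shown because it holds the only TGTTTAC found before a member. Capitals mark TATAAA (212 to 207 bases before the start) and TGTTTAC (77 to 71 bases before it).

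Apoa2, chr1:171224804-171225053, plus strand, GRCm38.p6: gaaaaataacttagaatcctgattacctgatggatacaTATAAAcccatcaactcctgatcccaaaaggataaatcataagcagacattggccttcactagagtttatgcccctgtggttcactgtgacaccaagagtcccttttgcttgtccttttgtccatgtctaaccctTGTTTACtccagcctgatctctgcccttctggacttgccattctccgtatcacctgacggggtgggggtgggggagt

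Tomm40l averaged 19.0 to 25.8 TPM per group and had log2 values of -0.31 between d3con and d0con and -0.17 between d3ko and d3con, neither of them called, beside -3.60 and 2.52 for Apoa2.

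Apoa1, the main protein of high-density particles, was the clearest gain with doxycycline beside Apom. It had 0 and 0.2 TPM in d2-FVFn and 2.53 and 2.87 TPM in d2-FVFp, from 0 and 2 reads against 18 and 24. The log2 fold change was 4.41 (SE 0.86, adjusted p = 0.0165 by edgeR), but it rests on 2 reads in d2-FVFn, and the pooled ratio was 25.4 with an exact 95% interval of 6.60 to 216.3. Only the 2 d2-FVFp libraries reached 1 CPM, so Apoa1 entered this test through the group where it is high, and without either of them it was not tested. Without d2-FVFn replicate 1 or 2 the log2 value was 3.63 or 7.42. At day 3 the same gene stayed low. It had 0.81, 1.39 and 0.25 TPM in d3con, 0.12, 0.43 and 0.21 TPM in d3ko, 0.18 and 0.51 TPM in d0con and 0.59 and 0.33 TPM in d0ko. These 4 groups overlapped, and with 1 to 14 reads a library Apoa1 did not pass the filter. The pooled ratio of d3ko to d3con was 0.321 (exact 95% interval 0.125 to 0.729), from 8 and 26 reads, and without the filter the edgeR adjusted p was 0.314. Apoa1 therefore had less RNA in d3con, where Foxa2 was at 34.8 to 58.6 TPM, than in d2-FVFp, where Foxa2 was at 159.8 to 168.6 TPM, but the systems differ in line, medium and time and this difference was not tested.

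The sequence before the Apoa1 start is shown because 2 copies of TGTTTGC lie in it, 88 to 82 and 75 to 69 bases before the start. They are in capitals.

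Apoa1, chr9:46228380-46228579, plus strand, GRCm38.p6: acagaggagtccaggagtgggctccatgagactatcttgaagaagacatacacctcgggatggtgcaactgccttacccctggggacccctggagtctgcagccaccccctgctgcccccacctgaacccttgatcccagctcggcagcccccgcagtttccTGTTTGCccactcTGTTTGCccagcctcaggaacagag

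These 200 bases also end at an annotated exon. Apoa1 (chromosome 9, 46228630 to 46230469) and Apoa4 (46240844 to 46243458) are neighbours on the plus strand, with Apoc3 between them and Apoa5 beyond. The cluster did not move as a block. Apoa4, a chylomicron protein of the gut, had 0.52, 0.17 and 0.1 TPM in d3con, 0 and 0.05 TPM in d0ko, and 0 in the other 9 libraries. Its 10, 3 and 2 reads in d3con against 0 in d3ko make it at least 4.80-fold lower in d3ko, taking a floor of 3 reads over the group, and d3con at least 3.04-fold higher than d0con. Antisense genes overlap the Apoa4 exons, so these few reads are uncertain. Apoc3 was listed above 0 in 1 library only (0.38 TPM, d3con replicate 3), and Apoa5 had 0.28 TPM or less. None of the 3 rose with Apoa1 in d2-FVFp, where Apoa4 and Apoc3 were at 0 and Apoa5 at 0.12 and 0 TPM. The flanking genes Sik3 and Zpr1 averaged 3.74 to 6.24 and 49.7 to 88.1 TPM per group.

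Apom, a lipocalin that carries sphingosine-1-phosphate on high-density particles, showed the same contrast as Apoa1. It had 0 and 0.42 TPM in d2-FVFn and 5.76 and 6.75 TPM in d2-FVFp, from 0 and 3 reads against 29 and 40. The log2 fold change was 4.60 (SE 0.80, adjusted p = 0.0119 by edgeR), and the pooled ratio was 27.8 with an exact 95% interval of 9.12 to 138.0. Apom too entered the test only through the 2 d2-FVFp libraries and was not tested without either of them, and its log2 value was 3.79 without d2-FVFn replicate 1 and 8.13 without d2-FVFn replicate 2. In the knockout series it had 0.14 to 0.52 TPM in d3con and 0 to 0.84 TPM in d3ko, with 0.57 to 1.46 TPM at day 0. So Apom was not higher in any d3con library than at day 0, and the ratio of d3ko to d3con was 1.04 (exact 95% interval 0.367 to 2.96). Apom lies on chromosome 17 at 35128997 to 35131801 (minus strand), next to Bag6, a chaperone gene with group means of 73.1 to 116.3 TPM. Nearly all of the window before its start lies in an annotated Apom exon and is not printed, and none of these motifs was found there.

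Apoe and Apoc1, neighbours on chromosome 7 (Apoe at 19696244 to 19701310, Apoc1 at 19689480 to 19692659), were high in every group, with a wide spread between libraries at day 3. Apoe, the ligand by which many lipoproteins are taken up, had 674.8 and 640.3 TPM in d0con, 606.7 and 745.8 TPM in d0ko, 1449.7, 712.3 and 1181.8 TPM in d3con, and 2069.3, 693.2 and 2575.9 TPM in d3ko. Replicate 2 was the lowest library of both day 3 groups. With all libraries edgeR called no comparison of Apoe at day 3: the log2 value was 0.56 (adjusted p = 0.354 by edgeR) for d3con against d0con, 1.23 (adjusted p = 0.0908 by edgeR) for d3ko against d0ko and 0.67 (adjusted p = 0.355 by edgeR) for d3ko against d3con. DESeq2 called d3ko against d0ko (1.21, adjusted p = 0.0313). Without d3ko replicate 2, Apoe was called higher in d3ko than in d0ko (1.62, adjusted p = 0.00642 by edgeR) and than in d3con (1.05, adjusted p = 0.0220 by edgeR). Without the second libraries of both day 3 groups the value against d3con was 0.80 (adjusted p = 0.0128 by edgeR), under the fold limit and not a call.

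Apoc1, which restrains lipoprotein uptake and lipase action, had 52.2 and 57.0 TPM in d0con, 64.8 and 89.4 TPM in d0ko, 59.1, 24.1 and 42.5 TPM in d3con, and 147.2, 30.4 and 132.1 TPM in d3ko. Here too replicate 2 was the lowest at day 3. Its log2 difference between d3ko and d3con was 1.29 (SE 0.53, adjusted p = 0.153 by edgeR), and 1.72 (adjusted p = 0.00675 by edgeR) without d3ko replicate 2. Across all 14 libraries the Pearson correlation of Apoe and Apoc1 on the log2(TPM + 1) scale was 0.69, a description over libraries that share groups. The ratio of Apoe to Apoc1 was not fixed and ran from 8.34 in d0ko replicate 2 to 29.6 in d3con replicate 2.

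A sum of fibroblast genes had the order of Apoe within each day 3 group, but most of its genes did not in both. The sum of 8 feeder markers (Col1a1, Col1a2, Col3a1, Thy1, Postn, Dcn, Lum and Pdgfrb) was 308.0, 60.2 and 220.1 TPM in d3con and 298.3, 135.9 and 371.0 TPM in d3ko. Col1a1 was its largest part, at 180.2, 30.3 and 119.7 TPM in d3con and 167.6, 67.2 and 259.6 TPM in d3ko. Col1a1 and Thy1 kept the order of Apoe in both groups, and Col1a2 and Col3a1 in d3con only. Postn, Dcn, Lum and Pdgfrb kept it in neither. At day 0 the sum was 12.5 to 137.2 TPM. All 8 markers were above 0 in at least 1 library of each of these groups. The part of feeder RNA in the Apoe and Apoc1 levels at day 3 was not tested. In the feeder-free doxycycline line the sum was 2.73 to 4.07 TPM, and Apoe was still at 1039.3 and 644.6 TPM in d2-FVFn and 1772.7 and 962.2 TPM in d2-FVFp. Of 5 macrophage markers, 4 (Ptprc, Csf1r, Cd68 and Tyrobp) were found. They summed to 16.5, 15.8 and 14.4 TPM in d3con, not the order of Apoe, and to 36.5, 26.9 and 67.5 TPM in d3ko, which is the order of Apoe. Cd68, which other cells also express, made up nearly all of these sums, and the defining markers Ptprc and Csf1r had 0.05 TPM or less in every day 3 library. The visceral endoderm markers Ttr and Afp had 0.24 TPM or less in every library of day 0 and day 3. In d2-FVFp they had 0.45 to 0.65 TPM. These 2 genes do not stand for the list of 10 visceral or primitive endoderm genes that they belong to. Of its 8 genes tested at day 0 and day 3, edgeR called 4 higher and 2 lower in d3con than in d0con, against 20.6% and 14.6% of all tested genes. Between d3ko and d0ko 3 of the 8 were higher and 1 lower, against 11.6% and 5.72%. With doxycycline 2 of 7 tested were higher and 0 lower, against 6.96% and 1.47%. The list summed to 65.0 to 1162.8 TPM over the groups. Most of this sum at day 0 was Tdh, a metabolic gene of ESCs (892.0 to 1109.9 TPM).

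**Figure D2:**
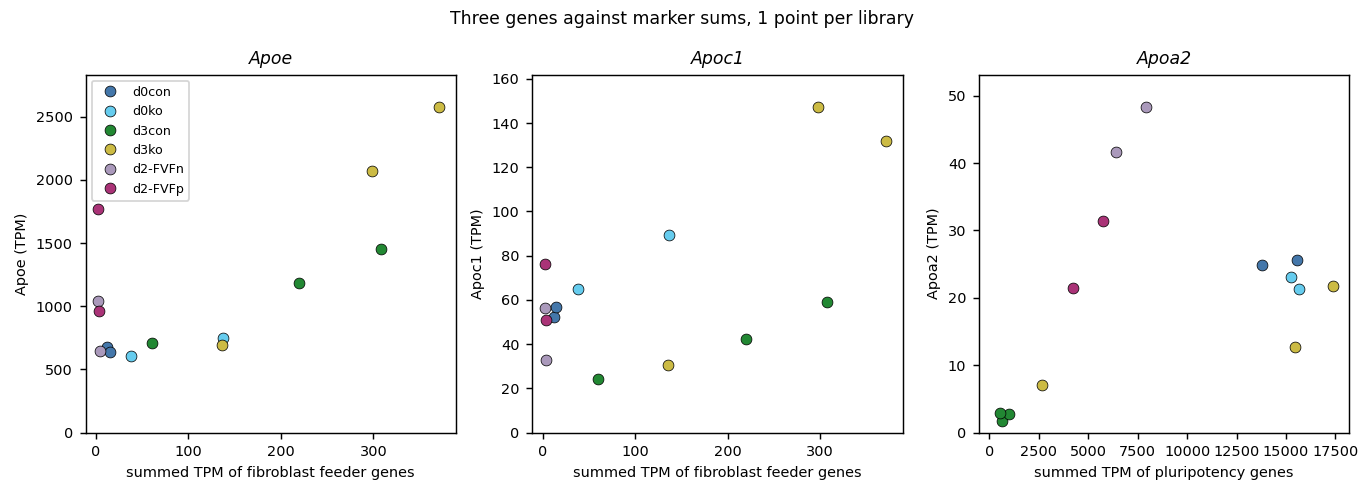
Apoe and Apoc1 against the summed TPM of 8 fibroblast feeder genes, and Apoa2 against the summed TPM of 6 pluripotency genes, 1 point per library and both axes linear. Within each day 3 group the order of Apoe follows the feeder sum, which runs from 60.2 to 371.0 TPM, while the feeder-free libraries have 644.6 to 1772.7 TPM of Apoe at sums near 0, and Apoa2 is lowest in d3con (1.66 to 2.83 TPM), the group with the lowest pluripotency sums.

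With doxycycline neither gene of this pair was called. Apoe had a log2 value of 0.65 (SE 0.31, adjusted p = 0.189 by edgeR), and of 1.04 without d2-FVFp replicate 2 (adjusted p = 0.0132 by edgeR). Apoc1 had 56.5 and 32.8 TPM in d2-FVFn and 76.3 and 51.0 TPM in d2-FVFp, with a log2 value of 0.45 (SE 0.33, adjusted p = 0.373 by edgeR). In both groups replicate 1 had more of both genes than replicate 2.

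Apoc2, the cofactor of lipoprotein lipase at the other end of this cluster (19671579 to 19677941), was low. It had 3.70 and 1.53 TPM in d2-FVFn and 5.46 and 4.47 TPM in d2-FVFp, and the log2 value of 0.89 (SE 0.54) was not called (adjusted p = 0.294 by edgeR). It had 0.42 to 2.04 TPM at day 0 and 0 to 0.98 TPM at day 3, where it did not pass the filter. The pooled ratio of d3ko to d0ko was 0.407 (exact 95% interval 0.203 to 0.785). A readthrough gene, Gm44805, shares exons with Apoc2 and Apoc4, so how reads were divided there is uncertain, and Apoc4 itself had 0.85 TPM or less. Around the cluster, Tomm40, a mitochondrial import gene directly beside Apoe, fell between d0con and d3con (log2 -1.24, SE 0.16, adjusted p = 0.000539 by edgeR), while Clptm1 averaged 76.9 to 108.0 TPM per group and Relb 7.75 to 20.6 TPM. Of the 23 neighbouring or intervening genes in the files around the 9 genes, 16 were tested in the fit of day 0 and day 3. Between d0con and d3con 0 of them rose and 3 fell (Tomm40, Trmt10a and Dapp1), against 20.6% and 14.6% of all tested genes.

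Counted over the set, 2 of the 5 tested members were higher and 1 was lower in d3con than in d0con, in a comparison in which 20.6% of the 13899 tested genes were called higher and 14.6% lower. Between d3ko and d0ko 0 of 5 were called, against 11.6% of all genes higher and 5.72% lower. There edgeR gave 2 members and 6025 of all genes an unadjusted p under 0.05, and DESeq2 called 2 members and 2913 genes. Between d3ko and d3con 1 of 5 was higher (Apoa2) and 1 lower (Apob), against 4.75% higher and 3.51% lower. Between d0ko and d0con 0 of 5 were called, and 0% of all genes were called higher and 0% lower. In that comparison edgeR gave 0 members and 195 of all genes an unadjusted p under 0.05, and DESeq2 called 0 members and 1 gene. For the interaction of genotype and day 0 of 5 were called, again with 0% of all genes higher and 0% lower. In that test edgeR gave 2 members (Apob and Apoa2) and 1840 of all genes an unadjusted p under 0.05, and DESeq2 called 2 members and 566 genes. With doxycycline 3 of 8 were higher and 0 lower (edgeR unadjusted p under 0.05 for 5 in either direction, DESeq2 3 called), against 6.96% of 12943 tested genes higher and 1.47% lower. Since Apoa1 and Apom were tested only because they are high in d2-FVFp, this count is not read against that share. Apob entered the fit of day 0 and day 3 through d3con, where it is high. The counts that include it, for d3con against d0con and d3ko against d3con, are not read against their shares either. The median log2 value over the tested members was 0.56 for d3con against d0con, 0.67 for d3ko against d3con and 0.88 with doxycycline, beside medians over all tested genes of 0.07, 0.02 and 0.01. In so few genes these shares describe the members and no more. The comparisons d3con against d0con and d3ko against d3con share the d3con libraries, so their values are set side by side and not counted as 2 observations.

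**Figure D3:**
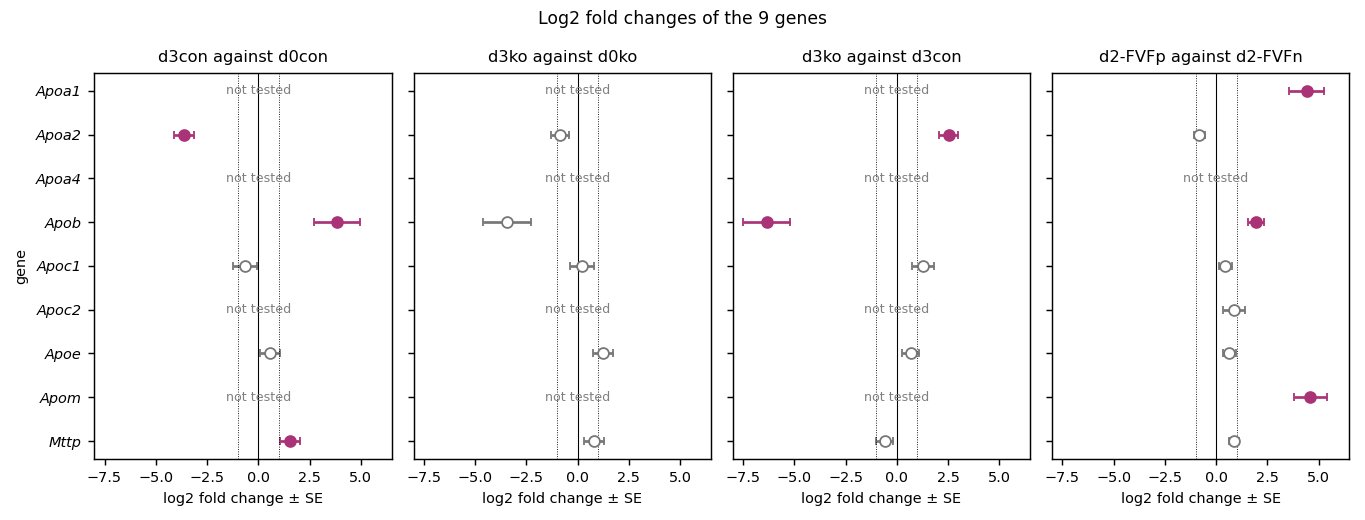
Log2 fold changes (x axis) with standard errors for the 9 genes (y axis) in 4 comparisons, from edgeR. Filled points were called, open points were not, dotted lines mark a 2-fold change, and genes below the filter are marked as not tested. Apob stands at 3.84, -3.46, -6.34 and 1.94 from left to right.

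Many of the factors that apolipoprotein promoters are known to respond to differed between the groups. Of 25 known regulators, 19 were tested at day 0 and day 3, and 11 were higher and 1 lower in d3con than in d0con, against 20.6% and 14.6% of all tested genes. Foxa1 rose by 9.91 on the log2 scale, Foxa2 by 8.28 and Gata6 by 7.64 (edgeR adjusted p = 0.000287, 5.27e-05 and 0.000370). Hnf4a, a nuclear receptor of liver and gut, had 9.91, 1.62 and 9.01 TPM in d3con, against 0 to 0.18 TPM at day 0, and rose by 6.09 (SE 1.66, adjusted p = 0.0137 by edgeR), a call lost without d0con replicate 1 (5.06, adjusted p = 0.0870 by edgeR). In d3ko 5 of the 19 were lower and 2 higher than in d3con, against 3.51% and 4.75% of all tested genes. Foxa2 is the replaced gene, and the day 3 cells were sorted by its reporter. It is among the 5 lower genes here and the 11 higher ones above, so neither count is read against those shares. Foxa1 (log2 -7.52, adjusted p = 0.00349 by edgeR) was lower, as were Foxa3 (log2 -3.95, adjusted p = 0.0141 by edgeR) and Foxa2 itself. Nr5a2, a nuclear receptor of ESCs and liver, was higher (log2 4.42, adjusted p = 0.0134 by edgeR). The calls of Foxa3 and Nr5a2 were lost without d3con replicate 1 or 3 (edgeR adjusted p = 0.0539 and 0.0651 for Foxa3, 0.0598 and 0.0735 for Nr5a2).

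Gata4 and Gata6 were still present in d3ko, at 13.8 to 69.0 and 4.34 to 28.9 TPM, and their log2 values against d3con of -1.54 and -1.45 were not called (edgeR adjusted p = 0.0774 and 0.108). Without d3ko replicate 2, which had the most of both, the 2 log2 values were -2.03 and -2.03 and were called (edgeR adjusted p = 0.0185 and 0.0206), and DESeq2 called both with all libraries (adjusted p = 0.0127 and 0.0415). In d3ko they stood beside 0.02 TPM or less of Apob. Hnf4a was at 0 to 0.55 TPM in d3ko, with a log2 value of -4.30 (adjusted p = 0.0537 by edgeR), and was called without d3ko replicate 2 (-3.74, adjusted p = 0.0296 by edgeR).

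With doxycycline the picture of the regulators differed. Of 15 tested, 4 were higher and 1 lower, against 6.96% and 1.47% of all tested genes. Foxa2 rose by 6.002 on the log2 scale (SE 0.22, adjusted p = 0.000142 by edgeR), Gata6 by 5.19 (SE 0.44, adjusted p = 0.00148 by edgeR), Prox1, a liver homeobox gene, by 5.06 (SE 0.79, adjusted p = 0.00864 by edgeR) and Gata4 by 2.59 (SE 0.30, adjusted p = 0.00338 by edgeR). Foxa2 is the induced gene that the sort followed, and Gata6 and Prox1 were tested only through the 2 d2-FVFp libraries. The count of 4 is therefore not read against the share of all genes. Foxa1 and Hnf4a did not pass the filter, with at most 0.42 and 0.1 TPM in d2-FVFp. Apoa1, Apom and Apob had higher levels in d2-FVFp than in d2-FVFn, and Hnf4a and Foxa1 were nearly undetected in these libraries. In d3con both factors were higher, and Apoa1 and Apom were low, while Apob had 0.29 to 2.06 TPM and was higher than in d0con. The systems differ in line, medium, day and Foxa2 level, and the part of any of these factors was not tested.

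**Figure D4:**
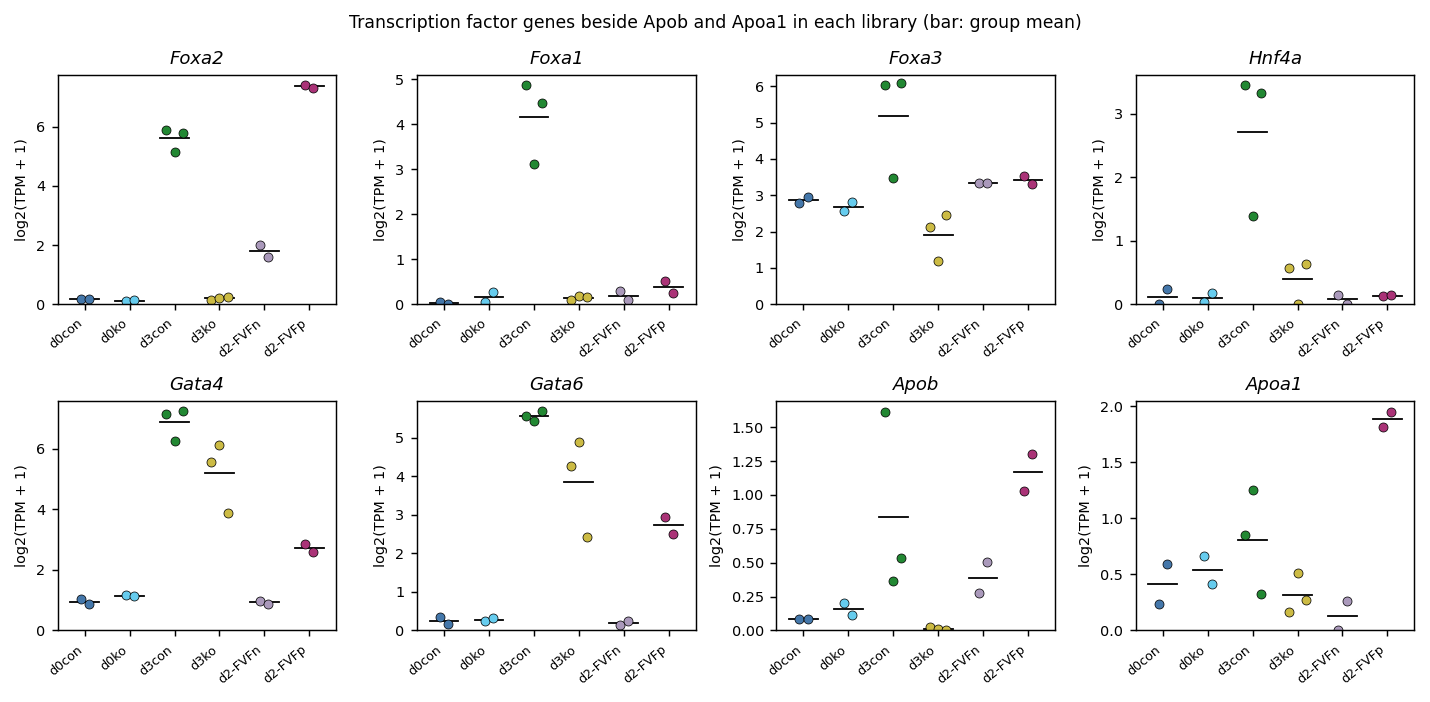
Levels as log2(TPM + 1) (y axis) of 6 transcription factor genes and of Apob and Apoa1 in the 14 libraries by group (x axis), with a bar at each group mean. Foxa1, Foxa3 and Hnf4a are highest in d3con among the 6 groups, Gata4 and Gata6 are also present in d3ko and d2-FVFp, and Foxa2 is highest in d2-FVFp (159.8 and 168.6 TPM).

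Other lists covered the rest of the pathway. In receptors and uptake, 11 of 14 tested genes were higher and 0 lower in d3con than in d0con, and 9 were higher in d3ko than in d0ko. The shares of all tested genes called are 20.6% higher and 14.6% lower in d3con, here and for the lists that follow, and 11.6% higher in d3ko. Vldlr, a receptor for apoE-bearing particles, rose by 6.79 (SE 0.66, adjusted p = 0.000219 by edgeR) in con cells and by 6.18 (SE 0.63, adjusted p = 0.000756 by edgeR) in ko cells. The con and ko comparisons with day 0 share no library. In the interaction of genotype and day, the edgeR test of the difference between them, 0 of the 14 genes were called. In that test 0% of all tested genes were called higher and 0% lower. The median log2 value of the list there was -0.57.

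In assembly, lipidation and secretion 1 of 11 tested genes was higher and 2 lower in d3con than in d0con. Abca1, which loads lipid onto apoA-I, fell by 4.72 on the log2 scale (SE 0.76, adjusted p = 0.00120 by edgeR) and was higher in d3ko than in d3con (log2 3.38, SE 0.70, adjusted p = 0.0208 by edgeR). The second call was lost without d3con replicate 3 or d3ko replicate 1 or 3 (edgeR adjusted p = 0.0585 to 0.0884) and with the libraries of 1 clone summed (adjusted p = 0.119 by edgeR). P4hb, the subunit that Mttp needs, had 342.6 to 644.6 TPM at day 3 and was not called in either day 3 comparison that involves d3con. With doxycycline P4hb had a log2 value of 0.48 (SE 0.11, adjusted p = 0.0243 by edgeR), under the fold limit, and 0 of the 11 genes were called. In lipid supply, which feeds triglyceride and cholesterol ester to the particle, 5 of 13 were higher and 1 lower in d3con, led by Mogat2, an acyltransferase of fat synthesis (log2 9.37, SE 0.83, adjusted p = 0.000162 by edgeR). Mogat2 and Dgat2 were the 2 genes of this list that d3ko had less of (log2 against d3con -1.98 and -1.31, edgeR adjusted p = 0.0257 and 0.0246). Both calls were lost without any one of d3con replicates 1 and 3 and d3ko replicate 1 (edgeR adjusted p = 0.0736 to 0.0964 for Mogat2 and 0.0737 to 0.0991 for Dgat2), that of Dgat2 also without d3ko replicate 3 (adjusted p = 0.0743 by edgeR). With doxycycline 0 of 13 were called.

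In lipases and plasma remodelling 2 of 8 were higher and 3 lower in d3con. Pla2g7, the lipoprotein-associated phospholipase, was lower in d3con than in d0con (log2 -4.50, SE 0.30, adjusted p = 7.18e-05 by edgeR) and rose by 5.31 (SE 0.22, adjusted p = 0.000151 by edgeR) in d2-FVFp, so its 2 changes had opposite signs. Lpl, lipoprotein lipase, fell by 1.82 in d2-FVFp (SE 0.26, adjusted p = 0.00593 by edgeR). In the list of other apolipoproteins 6 of 18 were tested, and 0 were higher and 3 lower in d3con, namely Apol6, Apod and Apobr (log2 -5.87, -3.26 and -1.995). The call of Apobr was lost without d0con replicate 1 or 2 (edgeR adjusted p = 0.0590 and 0.0654) and that of Apod without d0con replicate 1 (0.0504). Apod, a lipocalin, was the 1 gene of that list higher in d3ko than in d3con (log2 3.79, SE 0.79, adjusted p = 0.0209 by edgeR), a call lost without any one of d3con replicates 1 and 3 and d3ko replicates 1 and 3 (edgeR adjusted p = 0.0585 to 0.0852). Clu, which encodes clusterin (apolipoprotein J), was the 1 gene of the list higher in d2-FVFp (log2 2.50, SE 0.31, adjusted p = 0.00371 by edgeR). The median log2 value in d3con against d0con was 2.28 for receptors and uptake, 2.33 for the regulators, 0.92 for lipid supply, 0.29 for lipases, 0.09 for assembly and -1.10 for other apolipoproteins, beside 0.07 over all genes.

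**Figure D5:**
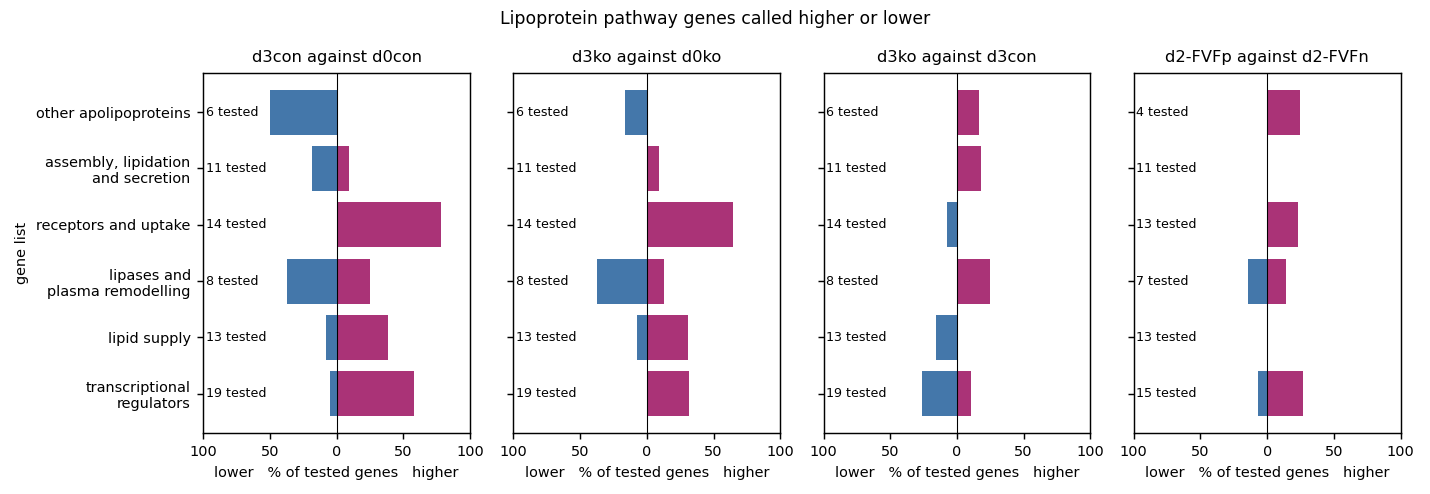
Share of the tested genes of each pathway list (y axis) called higher (right) or lower (left) in 4 comparisons, as percent of the tested genes (x axis), with the number tested printed. Receptors and uptake has 11 of 14 genes higher in d3con and 9 of 14 in d3ko, while other apolipoproteins has 3 of 6 lower in d3con.

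The genes whose pattern over the 14 libraries was most like a member's were named by Pearson's r of log2(TPM + 1) among 12935 genes with a mean of at least 1 TPM. For Apob they were Myl6 (0.90), Sel1l3 (0.90) and Ttc9 (0.90), and for Apoa1 Shh (0.92), Phldb1 (0.92) and AW112010 (0.91). For Apoe they were Pla1a (0.93), Zfp3 (0.92) and Bmf (0.91), and for Mttp Shc2 (0.97), Sppl2a (0.96) and Adam10 (0.94). For Apoa2, added after its values were seen, they were 2610305D13Rik (0.98), Gm10451 (0.98) and Chchd4 (0.98). No member was among the top 3 of another. Each r describes these 14 libraries, which fall into groups and 2 systems.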

How the data were processed

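RNA from sorted cells was amplified with SMART-Seq v4, a kit that does not mark strand. The authors aligned reads to mm10 (GRCm38) with STAR and quantified genes with RSEM (per the labels, with versions not given in the sources used here). They deposited, per library, expected counts (RSEM's estimated reads, not scaled) and TPM (scaled for length and library total). Effective lengths show that replicate 1 of d3con and d3ko had 75-base reads and all other libraries 50-base reads. RSEM divides a read among genes it matches, which can move low counts of overlapping genes. Library totals ran from 14142788 to 27278237, so intervals and floors of 3 counts cover counting error only.

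Groups came from sample titles. Nothing states that libraries of a clone came from separate cultures, so p-values may measure technical spread. Expected counts were rounded, genes with at least 1 CPM in 2 libraries were kept and TMM-scaled, and edgeR 4.0.16 (R 4.3.3) was fitted once to the 10 libraries of day 0 and day 3 and once to the 4 doxycycline libraries, with p-values adjusted over all tested genes. The script was tested on simulated data. Alternatives were median-of-ratios scaling, other filters, DESeq2 1.42.0, blocks of replicate or clone, summed clones, fits of 2 groups and leaving libraries out. Within a genotype, replicates 1 and 2 of day 0 and day 3 share a clone by number, as the study's methods name it, while replicate 3 of day 3 is the clone of replicate 1, so the replicate block and the clone block differ. Same-numbered libraries of day 0 and day 3 correlated by -0.040 to 0.063 in their deviations from group means. The members and the gene lists were chosen with earlier results of these data known. The text names the 9 genes, up to 4 called genes per list and comparison with the largest change, a fixed set of regulators and related genes, the 2 nearest protein-coding genes on each side, and the 3 genes most like Apoa1, Apob, Apoe and Mttp. Positions and sequences are RefSeq GRCm38.p6, with exons from GENCODE vM21. Angptl8 and Adgre1 of the lists were not analysed here, and some genes of the lists are counted but not reported by name, as is 1 motif of the search.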

Additional observations from a re-analysis of the deposited data

Results flagged for a closer look

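Apob moved in opposite directions in the 2 genotypes over the 3 days: the 3 d3con libraries were all above the 2 of d0con, and the 3 of d3ko were all below the 2 of d0ko. The difference between the changes was -7.30 on the log2 scale (SE 1.62), with an edgeR adjusted p of 0.153. The d3ko values rest on 3, 2 and 0 reads. Groups of 2 or 3 libraries are too small to test for single outlying samples, and d3ko replicate 2 was set apart by description only.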

How the results depend on the processing

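The number of the 9 genes called moved by more than 1.5 times in some settings. For d3ko against d0ko it was 0, and 1 with no filter, 1 with a replicate block, 2 with DESeq2, 1 without both 75-base libraries and 1 without both second libraries of day 3. For d3ko against d3con it was 2, and 0 in a fit of only the 2 groups, 0 without both 75-base libraries and 0 with the libraries of 1 clone summed. For the interaction it was 0, and 2 with DESeq2 and 2 without both second libraries. With doxycycline it was 3, and 1 with a mean count of at least 50, where fewer members were tested. Leaving out 1 library gave 1 to 3 for d3con against d0con, 0 to 2 for d3ko against d0ko, 0 to 4 for d3ko against d3con, 0 to 2 for the interaction, 2 to 3 with doxycycline and 0 to 0 for d0ko against d0con. The cause of the other moves was not tested.

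Values near 0 changed sign. Apoe in d0ko against d0con (log2 -0.0017) became 0.0039 with a mean count of at least 50, 0.033 with a replicate block, 0.033 without d0con replicate 1, and ran from -0.14 to 0.12 when each library was left out. Mttp there (0.14) ran from -0.18 without d0ko replicate 2 to 0.40 without d0ko replicate 1. Apoc1 in d3ko against d0ko (log2 0.21) became -0.19 with the replicate block, -0.29 with the clone block, -0.091 without both 75-base libraries, and ran from -0.11 without d3ko replicate 1 to 0.65 without d3ko replicate 2, with -0.033 without d3ko replicate 3. Leaving out 1 library, Foxa1 in d3ko against d0ko ran from -1.08 to 0.96 and Foxa3 with doxycycline from -0.063 to 0.18. Of 436 log2 values of members over all alternatives, 388 kept their direction and side of the threshold. The replicate block changed no call of a member but that of Apob in d3ko against d0ko, and the clone block changed none. Same-numbered libraries of d3ko and d3con correlated by 0.540, 0.294 and -0.014 in their deviations from group means, and those of d2-FVFn and d2-FVFp by 0.288. The main fits did not use the numbers as pairs, so they leave out any such sharing. With the replicate block, the doxycycline log2 value of Apob was 1.98 (adjusted p = 2.15e-08 by edgeR, 0.0188 without the block). That of Apoe was 0.63 (adjusted p = 5.33e-06 by edgeR, 0.189 without the block), under the fold limit. DESeq2 on only the 2 groups was added after the data were seen. Apoa4, and in the day 0 and day 3 fit Apoa1, Apoc2 and Apom, are limited by depth.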
